A study of Mus musculus with 6 samples.

Results

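Cholesterol genes were followed from synthesis to uptake, transport and efflux in adipocytes in which a hairpin targeted Zc3h10. The members were 31 genes chosen by name, 19 of cholesterol synthesis and 12 of uptake, intracellular transport, esterification, efflux and oxysterol formation. Of these, 27 had a probe set annotated to that gene alone and are described here, out of 21996 named genes on the array. They comprised 17 synthesis genes, 5 of uptake and transport and 5 of efflux and oxysterol formation. Acat2, Soat1 and Soat2 were not analysed here, so esterification, the role of both Soat genes, has no value. Idi1 was left out because its probe set carries a second gene symbol.

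Transcript levels were read on Affymetrix Mouse Gene ST arrays. The cells were C3H10T1/2 adipocytes, that is, fat cells grown in culture from an established mouse line of mesenchymal origin. The 3 Zc3h10 shRNA cultures were exposed for 72 h, at a multiplicity of infection of 50, to an adenovirus that carries a short hairpin against Zc3h10, which codes for an RNA-binding zinc finger protein, behind a U6 promoter. The 3 scramble cultures received a control adenovirus with a scrambled hairpin at the same dose and for the same time. All 6 were at 9 days of differentiation, and 1 hairpin construct against the gene was used. The labels call the samples biological replicates and do not say whether they were separate differentiations.

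Cells make cholesterol from acetyl-CoA through mevalonate, farnesyl diphosphate, squalene and lanosterol, and the transcription factor SREBP-2 switches on most genes of this route when sterols in the endoplasmic reticulum run low. Cholesterol is also taken up with lipoproteins, moved between membranes by sterol transfer proteins, stored as esters and exported by ABC transporters, some of which are switched on by the oxysterol-sensing nuclear receptors LXR. Fat cells hold much of the body's free cholesterol in the membranes and droplets of adipose tissue.

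The arrays were alike in scale, with median intensities of 15.7 to 16.1 in the Zc3h10 shRNA arrays and 15.6 to 15.7 in the scramble arrays over 33079 probe sets. Across probe sets, log2 values of 2 arrays correlated at 0.992 to 0.994 in the 6 pairs within a group and at 0.985 to 0.988 in the 9 pairs between groups. Zc3h10 itself, on probe set 17246198, read 25.2, 30.2 and 22.9 in the Zc3h10 shRNA cultures, against 25.9, 39.0 and 35.3 in the scramble cultures. The groups overlapped, and the log2 difference of −0.34 ± 0.17 was not past the threshold (limma, adjusted p = 0.301). Nor was it by an exact permutation test, two-sided (p = 0.2, where 3 against 3 arrays allow no p under 0.1). The labels' knockdown is therefore not established by this probe set, and differences below are between cultures given each virus. All 13 measured markers of mature adipocytes fell, with a median log2 difference of −1.16. Their summed intensity was 11905 to 12881 in the Zc3h10 shRNA arrays and 21897 to 24549 in the scramble arrays. Of 14 measured markers of progenitors and fibroblasts, 5 rose and 1 fell, with summed intensities of 15346 to 15943 and 13323 to 14689. None of 7 macrophage and 4 endothelial markers passed in limma, with 0 and 0 at an unadjusted p under 0.05, and 5 and 4 of them lay within the signal of silent genes. In such bulk RNA, fewer cells of a type and less RNA per cell cannot be told apart. How far the marker changes bear on the cholesterol genes was not tested.

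The cholesterol synthesis genes fell nearly throughout, whereas the genes that move cholesterol in, around and out of the cell were split. Of the 17 measured synthesis genes, 14 fell and 0 rose, and 7 of the 14 fell at least 2-fold. Over all probe sets, 5.48% were called lower and 4.31% higher (limma with Benjamini-Hochberg adjustment over 33079 probe sets, adjusted p under 0.05). Among the 11512 named genes whose signal reached a limit set from silent odorant receptor genes, 21.7% were called, 1377 genes lower and 1123 higher. Of the 10 measured genes of uptake, transport and efflux, 3 fell (Stard4, Abca1 and Abcg1), 1 rose (Lrp1) and 6 did not pass. The median log2 difference, Zc3h10 shRNA minus scramble, was −0.68 over the synthesis genes and −0.22 over the other 10, beside 0.01 over all named genes. Within those 10, the median was −0.02 over the 5 uptake and transport genes and −0.43 over the 5 efflux and oxysterol genes. The second median is the value of Cyp27a1, which lay within the signal of silent genes. Relative to each gene's scramble mean, the synthesis genes averaged −0.67, −0.91 and −0.82 on the log2 scale in Zc3h10 shRNA replicates 1 to 3, and −0.04, 0.00 and 0.04 in scramble replicates 1 to 3. The other 10 genes averaged −0.25, −0.27 and −0.28 in the Zc3h10 shRNA replicates and 0.04, 0.00 and −0.04 in the scramble replicates.

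**Figure D1:**
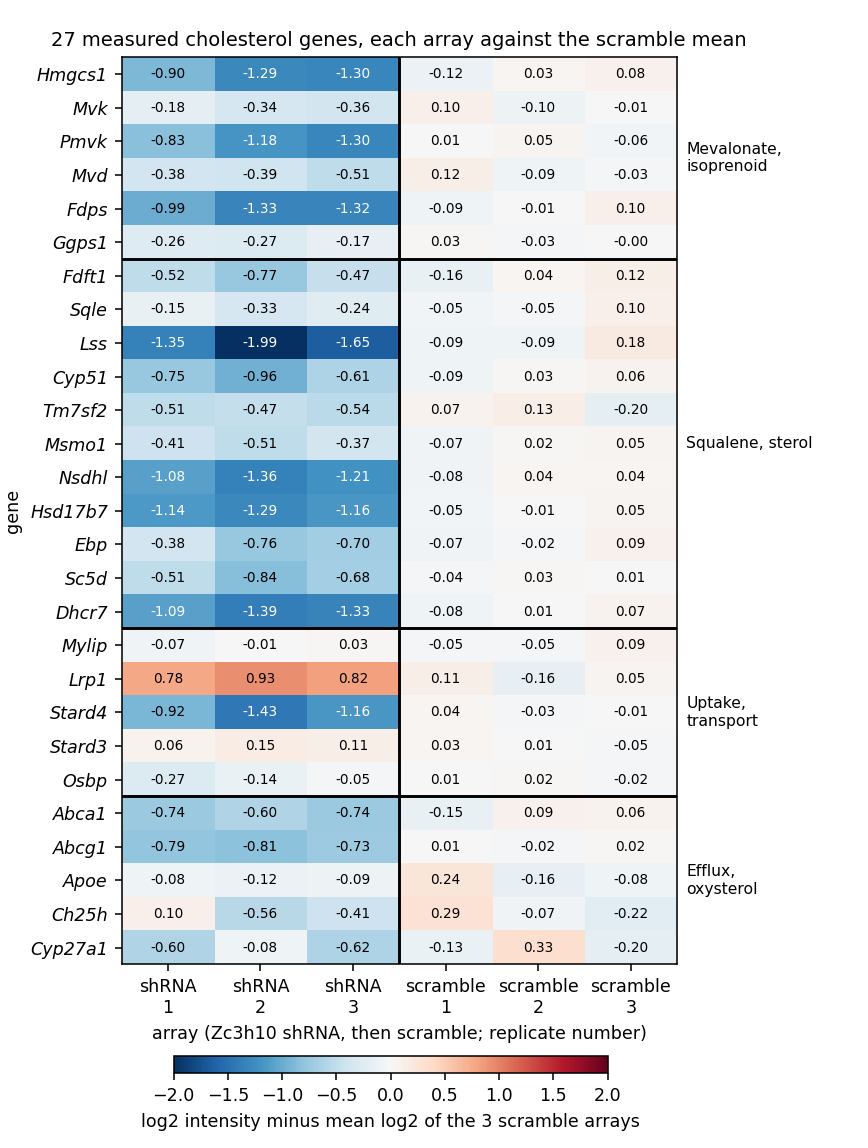
Log2 intensity of each of the 27 measured genes (rows, by role) on each array (columns, Zc3h10 shRNA replicates 1 to 3 and then scramble replicates 1 to 3), minus the mean log2 intensity of the 3 scramble arrays; blue is lower and red higher. Every synthesis gene is below 0 on all 3 Zc3h10 shRNA arrays, from −0.15 for Sqle to −1.99 for Lss, and Lrp1 is above 0 on all 3.

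Stretches upstream of 7 genes are printed because the synthesis genes moved together: 4 synthesis genes that fell (Hmgcs1, Lss, Hsd17b7, Nsdhl), 1 that did not pass (Mvk), the receptor gene that rose (Lrp1) and an efflux gene that fell (Abca1). Each is 150 bases of RefSeq sequence in build GRCm38.p6, 5′ to 3′ on the gene's strand, and ends before the first annotated base of the gene. Capitals mark CCAAT on either strand and a core of the sterol regulatory element, TCACNCCAC, on either strand.
Hmgcs1, chr13:119690201-119690350, plus strand: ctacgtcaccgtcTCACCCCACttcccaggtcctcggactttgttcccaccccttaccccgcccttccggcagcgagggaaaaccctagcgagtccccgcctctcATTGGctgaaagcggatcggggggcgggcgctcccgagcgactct
Lss, chr10:76531415-76531564, plus strand: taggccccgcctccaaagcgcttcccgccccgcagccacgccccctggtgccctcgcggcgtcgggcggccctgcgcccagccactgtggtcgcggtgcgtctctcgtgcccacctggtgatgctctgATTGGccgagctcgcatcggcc
Hsd17b7, chr1:169969243-169969392, minus strand: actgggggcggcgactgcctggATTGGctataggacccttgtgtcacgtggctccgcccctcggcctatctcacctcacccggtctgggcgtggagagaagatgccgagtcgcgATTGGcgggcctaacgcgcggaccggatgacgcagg
Nsdhl, chrX:72918371-72918520, plus strand: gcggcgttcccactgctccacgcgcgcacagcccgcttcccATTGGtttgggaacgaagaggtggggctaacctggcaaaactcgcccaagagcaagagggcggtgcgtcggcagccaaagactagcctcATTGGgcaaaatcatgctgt
Mvk, chr5:114444114-114444263, plus strand: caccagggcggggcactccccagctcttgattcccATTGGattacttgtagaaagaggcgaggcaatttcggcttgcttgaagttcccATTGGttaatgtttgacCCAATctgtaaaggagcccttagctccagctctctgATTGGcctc
Lrp1, chr10:127621149-127621298, minus strand: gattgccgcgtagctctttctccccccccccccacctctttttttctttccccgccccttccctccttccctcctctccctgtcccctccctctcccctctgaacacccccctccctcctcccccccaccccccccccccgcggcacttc
Abca1, chr4:53159989-53160138, minus strand: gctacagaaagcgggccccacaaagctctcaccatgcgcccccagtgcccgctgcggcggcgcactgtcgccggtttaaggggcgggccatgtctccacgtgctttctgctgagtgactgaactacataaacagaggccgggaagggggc

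CCAAT is the box bound by NF-Y, a factor known to work beside SREBP on sterol genes. Over the 250 bases before each RefSeq start, searched on both strands, all 14 measured synthesis genes with a RefSeq window held CCAAT, and so did 4 of 8 genes of uptake, transport and efflux. The share was 37.5% of 27025 RefSeq genes and 40.1% of the 9109 genes that were also at or above the silent-gene limit on the array. GGGCGG, the box of Sp1-type factors, was held by 12 of the 14 synthesis genes and 6 of the 8 others, beside 35.4% of RefSeq genes and 64.5% of those above the limit. TCACNCCAC was found before Hmgcs1, 137 bases upstream, and before Stard3, beside 1.22% of RefSeq genes. The 14 synthesis genes carried 1 to 5 copies of CCAAT in that window. Mvk and Osbp, which did not pass, held 5 each. Lss and Pmvk, which fell, held 1 each, and Hmgcs1 and Hsd17b7, which also fell, 3 each. The motifs were added after a first search, so the shares are a description and test nothing. These matches describe letters in the windows, and binding was not measured.

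The first steps of the route showed large and small differences side by side. Hmgcs1 encodes the cytosolic synthase that makes HMG-CoA. Its intensity, on probe set 17290173, was 1223, 935 and 926 in the Zc3h10 shRNA cultures, against 2102, 2332 and 2418 in the scramble cultures. The groups lay far apart, with Zc3h10 shRNA replicate 1 the highest of its 3, and the log2 difference was −1.16 ± 0.13 (SE of the limma fit, 3 arrays per group, adjusted p = 0.00160). Mvk encodes mevalonate kinase, which adds the first phosphate to mevalonate, and read 87.8, 78.5 and 77.4 in the Zc3h10 shRNA cultures, against 107, 93.1 and 99.1 in the scramble cultures. Its groups did not overlap, yet the log2 difference of −0.30 ± 0.10 did not pass (adjusted p = 0.116). Pmvk, the kinase of the next step, read 205, 161 and 148 in the Zc3h10 shRNA cultures, against 367, 378 and 350.4 in the scramble cultures, a log2 difference of −1.10 ± 0.13 (adjusted p = 0.00193). Mvd, the decarboxylase that forms isopentenyl diphosphate, read 72.8, 72.3 and 67.0 in the Zc3h10 shRNA cultures, against 103, 89.3 and 93.0 in the scramble cultures. It fell by less, with a log2 difference of −0.43 ± 0.10 (adjusted p = 0.0277). Mvd missed the threshold whichever array was left out, with adjusted p values up to 0.102, reached without Zc3h10 shRNA replicate 3.

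Fdps and Ggps1 share the precursors that lie at the branch from mevalonate to sterols and to longer isoprenoids. Fdps encodes the synthase of farnesyl diphosphate, the precursor of squalene, and read 298, 237 and 238 in the Zc3h10 shRNA cultures, against 557, 591 and 635 in the scramble cultures. The highest Zc3h10 shRNA value lay far below the lowest scramble value, and the level was 43.1% of the scramble level (95% confidence interval 35.7 to 52.1%), with adjusted p = 0.00104. Ggps1 makes geranylgeranyl diphosphate, which is used to prenylate proteins and leads away from sterols. It read 165, 163 and 176 in the Zc3h10 shRNA cultures, against 201, 193 and 197 in the scramble cultures, and the log2 difference of −0.23 ± 0.08 did not pass (adjusted p = 0.147). The difference between both genes' responses was not tested.

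Squalene is made by Fdft1, oxidised by Sqle and closed into lanosterol by Lss. Fdft1, squalene synthase, read 516, 434 and 534 in the Zc3h10 shRNA cultures, against 662, 758 and 799 in the scramble cultures, a log2 difference of −0.58 ± 0.12 (adjusted p = 0.0187) that missed the threshold without Zc3h10 shRNA replicate 2, scramble replicate 2 or scramble replicate 3 (adjusted p = 0.0601 to 0.0737). Sqle, squalene epoxidase and a rate-controlling enzyme of the later pathway, read 229, 202 and 216 in the Zc3h10 shRNA cultures, against 245, 246 and 272 in the scramble cultures. All of its Zc3h10 shRNA values lay below the scramble values, but the log2 difference of −0.24 ± 0.09 did not pass (adjusted p = 0.190). Lss, lanosterol synthase, had the largest difference of all 27 genes. On probe set 17234552 it read 180.2, 115 and 146 in the Zc3h10 shRNA cultures, against 432, 430.1 and 519 in the scramble cultures. That is 31.6% of the scramble level (95% confidence interval 24.2 to 41.2%), a log2 difference of −1.66 ± 0.17 (adjusted p = 0.00111), the 40th lowest among 21996 genes. The lowest of its values belonged to Zc3h10 shRNA replicate 2, which was also the lowest array for 12 of the 17 synthesis genes.

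The enzymes that turn lanosterol into cholesterol all passed the threshold in the Zc3h10 shRNA cultures. Nsdhl and Hsd17b7 remove the methyl groups at carbon 4 together with Msmo1. Nsdhl, the sterol dehydrogenase, read 647, 536 and 594 in the Zc3h10 shRNA cultures, against 1301, 1410.2 and 1406 in the scramble cultures, a log2 difference of −1.22 ± 0.10 (adjusted p = 0.000697). Hsd17b7, the keto-reductase, read 40.8, 36.8 and 40.3 in the Zc3h10 shRNA cultures, against 87.1, 89.7 and 93.6 in the scramble cultures. The arrays within each group lay close together, and the log2 difference was −1.20 ± 0.09 (adjusted p = 0.000658). Msmo1, the methyl oxidase of the same complex, fell less, with 348, 327 and 360.3 in the Zc3h10 shRNA cultures, against 443, 470.2 and 480.1 in the scramble cultures. Its log2 difference was −0.43 ± 0.09 (adjusted p = 0.0200), and it missed the threshold without Zc3h10 shRNA replicate 2 or 3 or scramble replicate 2 or 3 (adjusted p = 0.0505 to 0.0765).

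Dhcr7 encodes the reductase that closes one of the routes to cholesterol, and it read 165, 134 and 139.9 in the Zc3h10 shRNA cultures, against 332, 355 and 369 in the scramble cultures. That is 41.5% of the scramble level (95% confidence interval 34.9 to 49.2%), with adjusted p = 0.000727. Cyp51, the lanosterol demethylase, read 192, 167 and 212 in the Zc3h10 shRNA cultures, against 304, 330.1 and 339 in the scramble cultures, a log2 difference of −0.78 ± 0.11 (adjusted p = 0.00440). Sc5d, the lathosterol desaturase that acts just before Dhcr7, read 283, 224 and 250.0 in the Zc3h10 shRNA cultures, against 391, 410.3 and 404 in the scramble cultures, a log2 difference of −0.68 ± 0.11 (adjusted p = 0.00627). In these 3 genes the highest Zc3h10 shRNA value stayed below the lowest scramble value. Ebp, the sterol isomerase, read 170.1, 131 and 136 in the Zc3h10 shRNA cultures, against 211, 218 and 235 in the scramble cultures, with a log2 difference of −0.61 ± 0.12 (adjusted p = 0.0160). Tm7sf2, a sterol reductase that works after Cyp51, read 54.9, 56.3 and 53.6 in the Zc3h10 shRNA cultures, against 81.8, 84.9 and 68.0 in the scramble cultures, with a log2 difference of −0.50 ± 0.11 (adjusted p = 0.0227). Both separate the groups, but their calls were lost with some single arrays left out. With 1 array left out, the log2 difference ran from −0.73 to −0.54 for Ebp and from −0.60 to −0.44 for Tm7sf2. Ebp missed the threshold without Zc3h10 shRNA replicate 2 or 3 or scramble replicate 2 or 3 (adjusted p = 0.0570 to 0.0672). Tm7sf2 missed it without any one array except scramble replicate 3 (adjusted p = 0.0606 to 0.0875).

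**Figure D2:**
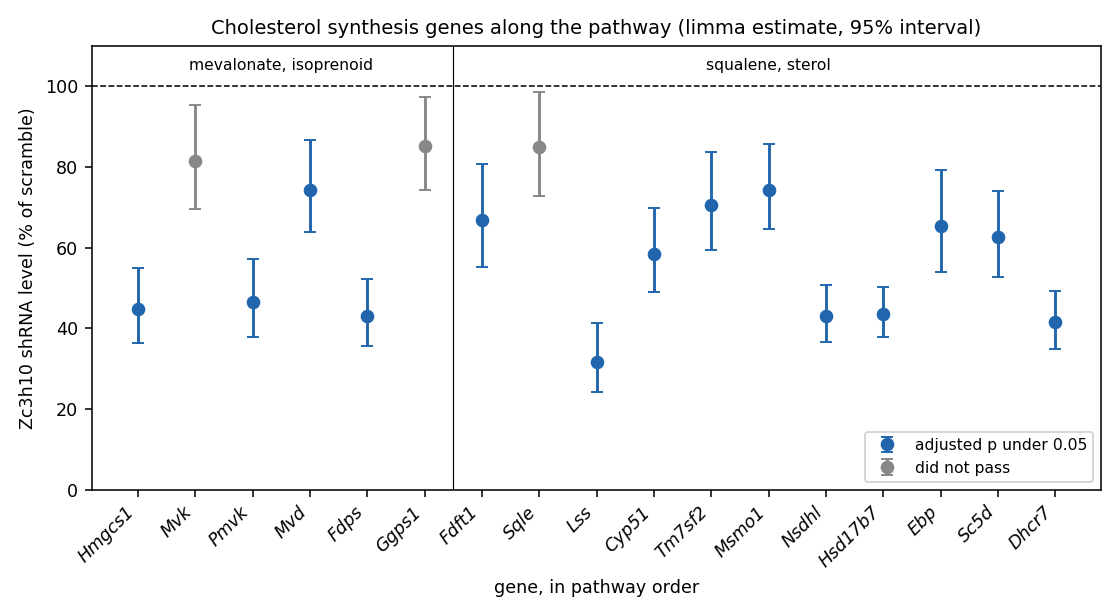
Level in the Zc3h10 shRNA cultures as a percentage of the scramble level (limma estimate from 3 arrays per group, bars are 95% confidence intervals before adjustment) for the 17 measured synthesis genes in pathway order. Levels run from 31.6% for Lss to 85.1% for Ggps1, and the 3 grey points, Mvk, Ggps1 and Sqle, did not pass the threshold.

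By stage, 4 of 6 genes of the mevalonate and isoprenoid steps and 10 of 11 genes of the squalene and sterol steps fell, with median log2 differences of −0.77 and −0.68. For each of the 17 synthesis genes, the 3 Zc3h10 shRNA values all lay below the 3 scramble values, as did those of 13.3% of all probe sets and 24.6% of named genes above the silent-gene limit. The count of 14 became 9 without Zc3h10 shRNA replicate 2, and 9 without scramble replicate 2.

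Among genes of uptake and transport, 1 rose and 1 fell. Lrp1 encodes a large endocytic receptor of the LDL receptor family that takes up apolipoprotein E-bearing particles. On probe set 17245923 it read 1831, 2036 and 1892 in the Zc3h10 shRNA cultures, against 1157, 956 and 1107 in the scramble cultures. All 3 Zc3h10 shRNA values were above all scramble values, and the log2 difference was 0.84 ± 0.10 (adjusted p = 0.00237). Stard4 encodes a soluble carrier that moves sterol between membranes and is itself switched on by SREBP-2. It read 49.8, 35.0 and 42.0 in the Zc3h10 shRNA cultures, against 96.5, 92.4 and 93.6 in the scramble cultures, which is 44.4% of the scramble level (95% confidence interval 36.0 to 54.9%) with adjusted p = 0.00166. That difference lies between those of the synthesis genes Hmgcs1 and Hsd17b7.

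The remaining transport genes did not pass. Mylip encodes the ubiquitin ligase IDOL, which marks the LDL receptor for degradation and is an LXR target. It read 406, 424 and 437 in the Zc3h10 shRNA cultures, against 415, 414 and 456 in the scramble cultures, with overlapping groups and a log2 difference of −0.02 ± 0.09 (95% confidence interval −0.22 to 0.19, adjusted p = 0.937). Stard3, a late endosomal sterol-binding protein, read 98.4, 105 and 102 in the Zc3h10 shRNA cultures, against 96.3, 95.1 and 91.2 in the scramble cultures, a log2 difference of 0.11 ± 0.08 (adjusted p = 0.534). Osbp, which exchanges sterol for phosphatidylinositol phosphate at the Golgi, read 409, 448 and 478 in the Zc3h10 shRNA cultures, against 496, 499.8 and 486 in the scramble cultures, a log2 difference of −0.15 ± 0.09 (adjusted p = 0.409). The groups of Stard3 and of Osbp did not overlap, which was also so for 14.2% of all probe sets upward and 13.3% downward.

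Both cholesterol exporters among the members, Abca1 and Abcg1, fell. Abcg4, an exporter outside the members, lay within the signal of silent genes and did not pass (log2 difference −0.19 ± 0.10, limma adjusted p = 0.349). Abca1 passes cholesterol to lipid-poor apolipoprotein A-I and is a main LXR target. It read 364, 400.2 and 365 in the Zc3h10 shRNA cultures, against 548, 646 and 635 in the scramble cultures, a log2 difference of −0.69 ± 0.10 (adjusted p = 0.00470). Abcg1, which passes cholesterol to high-density lipoprotein and is also an LXR target, read 89.6, 88.2 and 93.4 in the Zc3h10 shRNA cultures, against 156, 152 and 157 in the scramble cultures. The arrays agreed closely within each group, and the level was 58.3% of the scramble level (95% confidence interval 51.1 to 66.5%) with adjusted p = 0.00132. Apoe, the apolipoprotein that fat cells and macrophages secrete, read 52.7, 51.3 and 52.3 in the Zc3h10 shRNA cultures, against 66.2, 49.9 and 52.8 in the scramble cultures. Scramble replicate 1 stood above the rest, the groups overlapped, and the log2 difference was −0.10 ± 0.12 (adjusted p = 0.709).

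The oxysterol enzymes gave weak signals. Ch25h, cholesterol 25-hydroxylase, read 35.3, 22.2 and 24.7 in the Zc3h10 shRNA cultures, against 40.1, 31.2 and 28.3 in the scramble cultures, with overlapping groups and a log2 difference of −0.29 ± 0.19 (adjusted p = 0.465). It has a second, dimmer probe set at −0.08 (adjusted p = 0.727). Cyp27a1, sterol 27-hydroxylase, read 6.75, 9.67 and 6.66 in the Zc3h10 shRNA cultures, against 9.34, 12.9 and 8.89 in the scramble cultures, within the signal of silent genes, so its log2 difference of −0.43 ± 0.19 (adjusted p = 0.235) carries little information.

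The machinery that controls SREBP was only partly changed. Of 10 measured genes, 4 fell and 0 rose, with a median log2 difference of −0.09. The background for this and the next lists is the 21.7% of named genes above the silent-gene limit called in either direction. No list count was tested against it. Insig1, which retains the SREBP escort protein in the endoplasmic reticulum and is itself a sterol-responsive SREBP target, read 769.6, 665 and 694 in the Zc3h10 shRNA cultures, against 1336, 1346 and 1449.9 in the scramble cultures, a log2 difference of −0.96 ± 0.10 (adjusted p = 0.00108). Srebf1, the gene of the SREBP isoforms tied mainly to fatty acid synthesis, read 132, 120.2 and 127 in the Zc3h10 shRNA cultures, against 226, 249.5 and 234 in the scramble cultures, a log2 difference of −0.90 ± 0.09 (adjusted p = 0.00108). Srebf2, which encodes SREBP-2, was at −0.06 ± 0.09 (adjusted p = 0.798), with values of 411, 362 and 367 in the Zc3h10 shRNA cultures, against 398, 377 and 410.1 in the scramble cultures. Its 95% confidence interval on the log2 scale was −0.27 to 0.16. The array reads the transcript, not the cleaved protein. Erlin2 and Rnf139, both parts of sterol-regulated degradation in the endoplasmic reticulum, were at −0.68 ± 0.10 (adjusted p = 0.00531) and −0.57 ± 0.09 (adjusted p = 0.00605).

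Of 7 measured genes in the list of other lipoprotein receptors and lysosomal release, 4 were called lower and 1, Npc1, was called higher on the probe set with the higher mean. The background share called was 21.7%. The list's median log2 difference was −0.60, close to the −0.68 of the squalene and sterol steps. Cd36, a scavenger receptor that also carries fatty acids, read 1666, 1637 and 1738 in the Zc3h10 shRNA cultures, against 3175, 3497 and 3513 in the scramble cultures, a log2 difference of −1.01 ± 0.09 (adjusted p = 0.00078). Vldlr, the receptor for very-low-density lipoprotein, was at −0.78 ± 0.10 (adjusted p = 0.00238), and Lipa, the lysosomal acid lipase that frees cholesterol from its esters, at −0.70 ± 0.10 (adjusted p = 0.00378). Npc1, the membrane protein that lets cholesterol out of lysosomes, was at 0.78 ± 0.10 (adjusted p = 0.00304). Npc1 has a second, dimmer probe set that moved the other way, at −0.70 ± 0.12 (adjusted p = 0.00746), so the direction for this gene is uncertain.

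Against the 21.7% background, 2 of 17 other sterol transfer proteins fell and 0 rose, with a median of −0.04. They were Osbpl11, an oxysterol-binding protein relative, at −0.56 ± 0.10 (adjusted p = 0.00913), and Gramd1b, which draws cholesterol from the plasma membrane, at −0.60 ± 0.12 (adjusted p = 0.0157). Gramd1b missed the threshold without Zc3h10 shRNA replicate 1 or 2 or scramble replicate 2 or 3 (adjusted p = 0.0518 to 0.0646). Stard3nl, at 0.31 ± 0.09, and the dim Osbpl6, at 0.54 ± 0.17, did not pass (adjusted p = 0.0837 and 0.0992), though Stard3nl did with a variance trend (adjusted p = 0.0458) and with an offset of 16 (adjusted p = 0.0208). In the list of LXR receptors, other efflux genes and ester hydrolysis, 3 of 10 fell by small amounts. They were the LXRα gene Nr1h3 at −0.54 ± 0.14 (adjusted p = 0.0438), its partner Rxra at −0.36 ± 0.09 (adjusted p = 0.0333) and the LXR target Lpcat3, a phospholipid acyltransferase, at −0.36 ± 0.09 (adjusted p = 0.0342). Rxra and Lpcat3 missed the threshold without any 1 array, and Nr1h3 without any 1 array except scramble replicate 2, with adjusted p values of 0.0555 to 0.140 in these fits. Cyp7b1, an oxysterol hydroxylase within the signal of silent genes, was at 0.25 ± 0.10 (adjusted p = 0.162).

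Against the 21.7% background, 1 of 13 measured genes that use isoprenoids for other ends fell and 1 rose, with a median of −0.20. Fntb, the β subunit of farnesyltransferase, was at −0.83 ± 0.13 (adjusted p = 0.00544). Rce1, which trims prenylated proteins, was at 0.50 ± 0.09 (adjusted p = 0.0127, and 0.0567 without scramble replicate 2). Rabggtb, the β subunit of the enzyme that attaches geranylgeranyl groups to Rab proteins, read 42.8, 37.8 and 34.2 in the Zc3h10 shRNA cultures, against 54.3, 97.0 and 56.0 in the scramble cultures. Its groups did not overlap, scramble replicate 2 was the highest, and the log2 difference of −0.80 ± 0.22, or −0.53 without that array, did not pass (adjusted p = 0.0594), but did with dim probe sets left out (adjusted p = 0.0476) and with a variance trend (adjusted p = 0.0234). Nus1, a subunit of the enzyme that makes dolichol precursors, missed the threshold at −0.29 ± 0.09 (adjusted p = 0.0913), but passed it with a variance trend (adjusted p = 0.0148) and with an offset of 16 (adjusted p = 0.0151). In all, 6 of the 13 had an unadjusted p under 0.05. The share of all probe sets at that looser cutoff was not counted, so no excess can be read from this. Of 3 measured genes of other synthesis steps and electron donors, Acat1 fell. This mitochondrial thiolase, which serves ketone body and isoleucine metabolism, was at −0.81 ± 0.09 (adjusted p = 0.00193). Cyb5r3 and Erg28, at −0.17 ± 0.10 and 0.09 ± 0.09, did not pass (adjusted p = 0.384 and 0.643). Over all 60 measured genes of these 6 lists, 15 were called lower and 2 higher, namely Rce1 and, with an uncertain direction, Npc1, beside 21.7% of named genes above the silent-gene limit called in either direction.

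**Figure D3:**
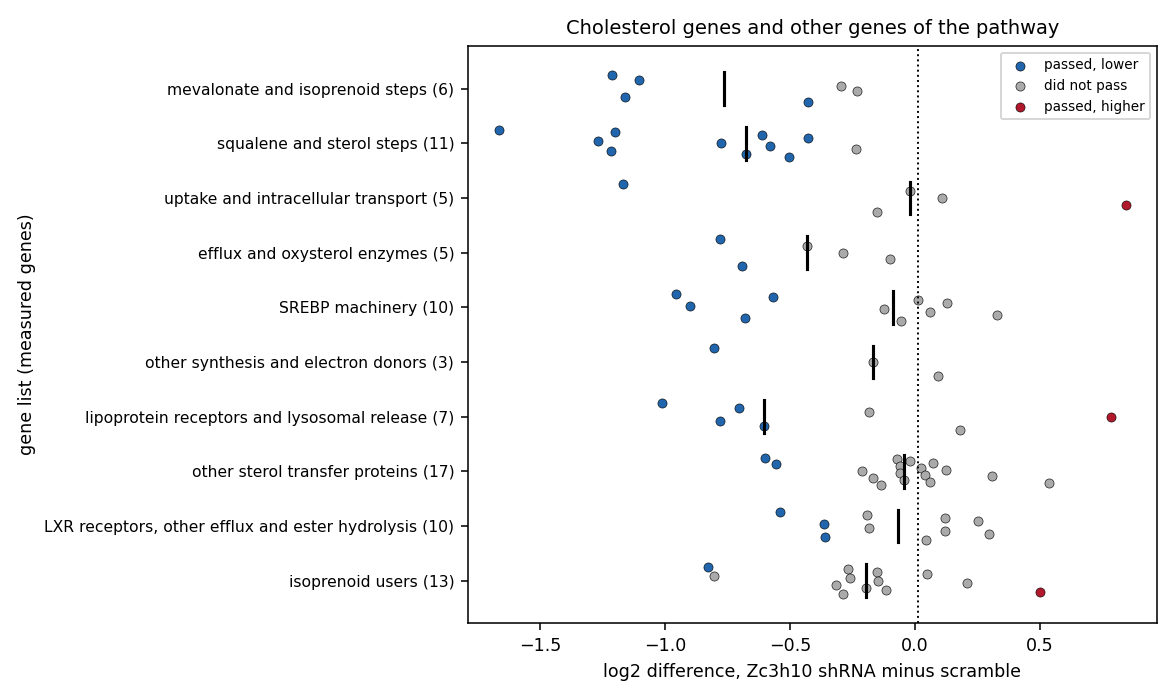
Log2 difference, Zc3h10 shRNA minus scramble, of each measured gene (points) by list, with the number of measured genes in brackets; blue and red passed an adjusted p of 0.05, grey did not, black bars are list medians and the dotted line is the median of all named genes, 0.01. The medians of both synthesis lists, −0.77 and −0.68, lie left of those of the other 8 lists. The nearest of these, over lipoprotein receptors and lysosomal release, is close by at −0.60.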

How the data were processed

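Total RNA of 6 cultures was hybridised to 1 single-colour Affymetrix array each, and titles gave the groups, 3 Zc3h10 shRNA and 3 scramble. The authors deposited 1 intensity for each probe set and array, on a linear scale, as the values show. Array medians were close, at 15.6 to 16.1, which does not by itself show that arrays were scaled to each other. The submitters' processing notes list Affymetrix Expression Console and Partek 6.6. The methods of background correction, summarisation and normalization, not given in the sources used here, matter most for dim probe sets. The number of arrays limits the precision.

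Log2 intensities of all 33079 probe sets were fitted with limma 3.58.1 in R 4.3.3 (lmFit, eBayes, two-sided), with Benjamini-Hochberg adjustment over all of them and the 5% threshold of the design text. The code was tested on simulated data. Genes were named from platform annotation with 1 symbol, checked by gene number against RefSeq. The probe set with the highest mean stood for a gene. The silent-gene limit, 4.37 on the log2 scale, is the 97.5th percentile of 1379 odorant and vomeronasal receptor genes. Members and lists were chosen with earlier results of these data known. By the naming rule, every member is given, and up to 4 genes of each other list with the smallest p, besides Zc3h10. Srebf2 and Abcg4 were added after their values were seen, and the motifs after a first search. Of 72 other pathway genes, 12 were not analysed here. Same-numbered arrays did not deviate together (r of 0.084, −0.005 and 0.043), so the numbers were not used as pairs. Alternatives were 3 scalings, an offset of 16, a filter on dim probe sets, other variance models, a replicate block, other probe sets and leaving out each array.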

Additional observations from a re-analysis of the deposited data

How the results depend on the processing

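Of the 18 genes among the 27 that passed, 13 kept their direction and their side of the threshold under all 15 alternatives, namely Hmgcs1, Pmvk, Fdps, Lss, Cyp51, Nsdhl, Hsd17b7, Sc5d, Dhcr7, Stard4, Abca1, Abcg1 and Lrp1. With 1 array left out, 9 to 12 synthesis genes fell. With the replicate block, 12 synthesis genes and 4 of the other genes fell, Mvd and Msmo1 being lost and Cyp27a1 gained. The ordinary t statistic called 10 synthesis genes and 1972 probe sets, and 1807 to 2578 probe sets were called with 1 array left out, against 3238 in the main analysis. An offset of 16 before log2 called 16 synthesis genes, Mvk and Ggps1 being added. The median of uptake, transport and efflux genes was −0.15 with that offset, −0.13 with the lowest-mean probe set for each gene (which changes Ch25h), and −0.28 to −0.15 with 1 array left out. Mylip, never past the threshold, was at 0.014 under quantile normalization and at −0.045 to 0.026 with 1 array left out, and Apoe at −0.18 to 0.021 with 1 array left out. Npc1 turned to −0.70 on its dimmer probe set. The cause of these shifts was not tested. Alternatives for genes outside the 27 were added after seeing the data. By the ordinary t statistic Fntb, Gramd1b and Nr1h3 missed the threshold too (adjusted p = 0.0555, 0.0822 and 0.164). Nr1h3 and Lpcat3 also missed it in limma after quantile normalization (adjusted p = 0.0563 and 0.0679). The same held in limma with the replicate block (adjusted p = 0.0917 and 0.0753). Rxra missed it in 7 of the 15 alternatives. Dim signals, as in Cyp27a1, limit what can be read.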
